A study of Mus musculus with 4 samples.

Results

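The heat shock proteins and DnaJ proteins are the chaperone machinery of the cell, and their genes were examined in BMP-activated and non-BMP-activated haematopoietic stem cell fractions. Genes were taken by symbol, as those starting with Hspa, Hspb, Hspd, Hspe, Hsph, Hsp90, Dnaja, Dnajb or Dnajc, with an FPKM (fragments per kilobase of transcript, scaled to the mapped fragments of the library) of at least 1 in at least 1 sample. This gave 62 genes, out of 74 symbols with these prefixes and 13609 genes that reached the same FPKM. The symbol rule also took in a few proteins that are no chaperones, such as *Hspb11*, a component of intraflagellar transport. Among the 62, the lowest of the highest values were 2.2 FPKM for *Dnaja4* and 2.37 FPKM for *Dnajc21*, and among the 12 genes left out the highest value was 0.698 FPKM, for *Dnajb8*.

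HSP70 proteins bind and release unfolded stretches of other proteins in a cycle driven by ATP. DnaJ proteins (HSP40) bring clients to HSP70 and start its ATP hydrolysis, and HSP110 proteins release the nucleotide, while HSP90 acts later on kinases, receptors and other clients. Each compartment has its own set, since the cytosol, the lumen of the endoplasmic reticulum (ER) and the mitochondrial matrix hold separate HSP70 and DnaJ proteins, and haematopoietic stem cells are known for a low rate of protein synthesis and for sensitivity to misfolded protein.

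RNA was sequenced from LSK-SLAM cells (lineage negative, Sca1+ cKit+ CD150+ CD48−), the phenotypic stem cell population, of untreated BRE–GFP transgenic mice on a C57BL/6 background. In these mice a BMP responsive element drives GFP when BMP signals through *Smad1* and *Smad5*, so that GFP marks a cell's BMP activation at the time of the sort. There were 4 groups with 1 sample each and no replicates, namely GFP+ and GFP− cells of the fetal liver (FL) at embryonic day 14 and GFP+ and GFP− cells of adult bone marrow (BM). Neither the number of animals behind a sample nor the age of the adults is stated in the sources used here.

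Differences between samples are therefore given as ratios of FPKM, with the 2-fold threshold of the study's methods. Beside each count of the 62 genes past 2-fold as deposited stands the share of all 13609 genes past it. No such share was taken for counts under another scaling, threshold or filter. Folds and counts are of FPKM as deposited wherever no scaling is named. A sample is 1 pool of cells, and fewer cells of a type cannot be told apart from less RNA per cell. Genes above 0 numbered 12372 to 17345 per sample, and FPKM summed to 541453 to 1000848.1. The tissue labels matched the 6 genes of a fetal list, which were all higher in FL in both fractions. The BM GFP+ library stood apart. The summed FPKM of 6 late neutrophil genes was 50966 there, against 6911 in BM GFP− and 24.8 and 27.6 in the FL samples, and 7 erythroid genes summed to 20421 against 907 to 2842. In the BM GFP+ library 9 of 10 stem cell markers were lower than in BM GFP− cells by over 2-fold, and *Procr* was listed at 0. *Cd48*, whose protein the sort excludes, stood there at 266.8 FPKM against 126.5 (BM GFP−), 51.4 (FL GFP+) and 17.4 (FL GFP−). Both BM samples held more early response RNA, which rises when cells are handled. The 11 genes of that list summed to 3229 and 2856 in BM GFP+ and GFP− against 179.1 and 191.3 in FL GFP+ and GFP− cells, and all 11 were over 2-fold higher in BM in both fractions. The part that these differences play in the results below was not tested.

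Chaperone RNA was abundant in all samples. The 62 genes together took 1.08% (FL GFP+), 1.12% (FL GFP−), 0.722% (BM GFP+) and 1.14% (BM GFP−) of the FPKM total. Of them, 53 were above 0 in every sample, 17 reached 100 FPKM in at least 1 sample and 10 did so in every sample. A few were listed at 0 (6, 3, 4 and 1 genes in the order above, or 9.68%, 4.84%, 6.45% and 1.61%), against 18.5%, 7.09%, 11.6% and 3.47% of all genes. Per length, the order from sample to sample was headed by the same cytosolic pair. *Hspa8*, the constitutive HSP70, which also uncoats clathrin vesicles, stood at 2486 (FL GFP+), 2055 (FL GFP−), 2249 (BM GFP+) and 2949 (BM GFP−) FPKM, with ranks of 14, 15, 65 and 19 among all genes. Wherever 4 values follow each other unlabelled, they are in this order. Its highest and lowest values were 1.43-fold apart. *Hsp90ab1*, the constitutive HSP90, stood at 1104 (FL GFP+), 1154 (FL GFP−), 838 (BM GFP+) and 1175 (BM GFP−) FPKM. The more inducible *Hsp90aa1* was at 408, 403, 393 and 533 FPKM, below *Hsp90ab1* in all 4 samples. No other gene of the 62 reached 1000 FPKM.

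**Figure D1:**
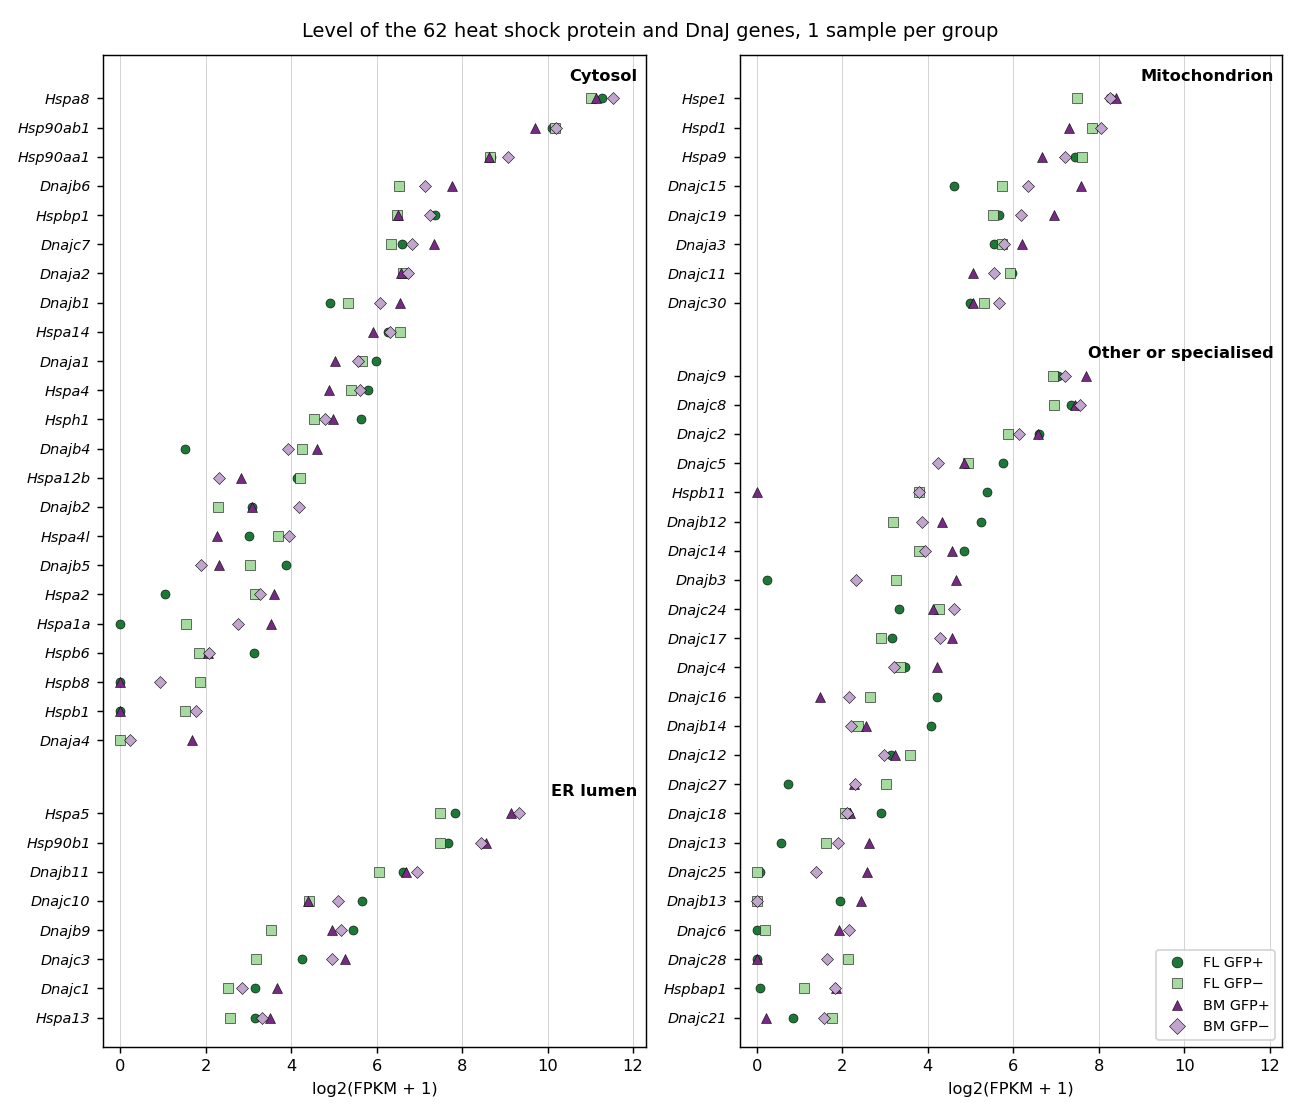
Level of each of the 62 genes on the log2(FPKM + 1) scale (x axis), in rows grouped by where the protein acts, with 1 symbol per sample. *Hspa8*, *Hsp90ab1* and *Hsp90aa1* lie far right in all 4 samples, *Hspa5* and *Hsp90b1* lie higher in both BM samples than in both FL samples, and *Hspb11* lies at 0 only in BM GFP+ cells.

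The 62 genes were sorted by the known place of the protein into 23 of the cytosol, 8 of the ER lumen, 8 of the mitochondrion and 23 of other or specialised roles. Summed over the cytosolic genes, FPKM came to 4778 (FL GFP+), 4286 (FL GFP−), 4352 (BM GFP+) and 5502 (BM GFP−). The ER sum was 653 and 469 for FL and 1155 and 1224 for BM cells, GFP+ first. Relative to the cytosolic sum of the same sample, a ratio that no scaling of the samples can change, the ER sum was 0.137, 0.11, 0.265 and 0.222, so that both BM samples lay above both FL samples. Most of each ER sum came from *Hspa5* and *Hsp90b1*, so that it describes mainly these genes and not the whole compartment. In GFP+ cells 2 of the 8 ER genes, *Dnajb9* and *Dnajc10*, were higher in the FL. The mitochondrial sum of 927, 847, 1046 and 1017 FPKM gave ratios of 0.194, 0.198, 0.24 and 0.185, with the groups overlapping between tissues.

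**Figure D2:**
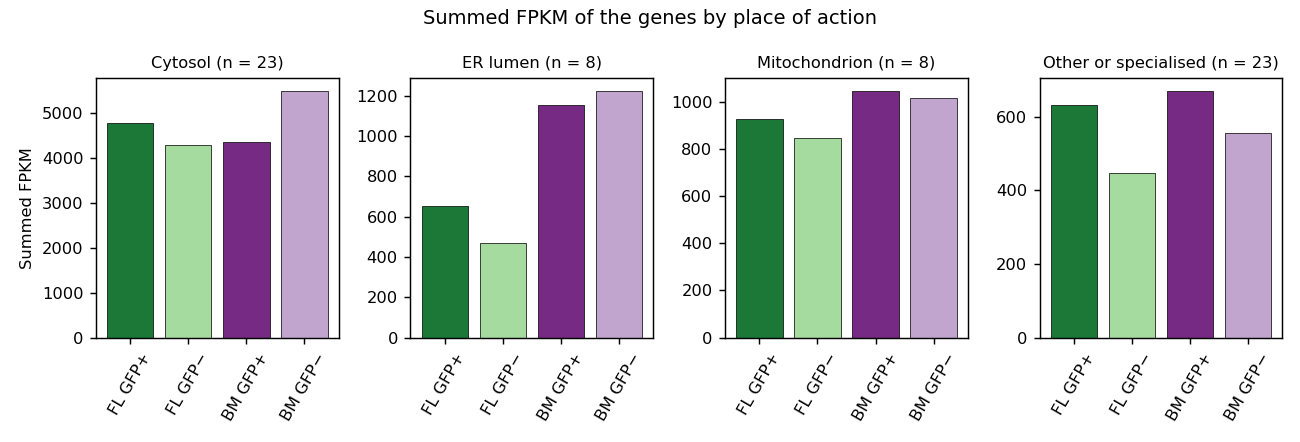
Summed FPKM (y axis, from 0, with a scale of its own in each panel) of the genes of each place of action in the 4 samples, 1 bar per sample and no error bars, since there are no replicates. The ER lumen genes sum to 1155 and 1224 FPKM in the BM samples and to 653 and 469 in the FL samples, with most of each sum from *Hspa5* and *Hsp90b1*.

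Between tissues, the ER lumen chaperones were lower in the FL in GFP− cells, while in GFP+ cells their direction turned with the scaling of the samples. In GFP− cells all 8 had a ratio of FL to BM below 1, with a median log2(FPKM + 1) ratio of -0.93 against -0.034 for all genes tested. In GFP+ cells 6 of 8 did, with a median of -0.42 against -0.029. With all samples scaled to the same FPKM total, 7 of 8 in GFP− and 3 of 8 in GFP+ cells were lower in the FL, with medians of -0.50 and 0.14. With the same upper quartile the counts were 8 and 6, with medians of -0.76 and -0.38.

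*Hspa5* (BiP), the HSP70 of the ER and the regulator that holds the sensors of the unfolded protein response inactive, stood at 226 (FL GFP+), 178 (FL GFP−), 568 (BM GFP+) and 643 (BM GFP−) FPKM. Both BM values lay above both FL values, by 2.51-fold in GFP+ and 3.61-fold in GFP− cells. Relative to *Hspa8* of the same sample, *Hspa5* was at 0.0910 and 0.0866 for FL and 0.252 and 0.218 for BM cells. *Hsp90b1* (GRP94), the HSP90 of the ER, which folds integrins and Toll-like receptors, stood at 203 (FL GFP+), 177 (FL GFP−), 377 (BM GFP+) and 345 (BM GFP−) FPKM. It was 1.85-fold and 1.95-fold higher in the BM, just short of the threshold in both fractions. *Dnajc3* (p58IPK), a DnaJ partner of BiP, stood at 18.03 (FL GFP+), 8.04 (FL GFP−), 37.1 (BM GFP+) and 29.8 (BM GFP−) FPKM, and its BM values were 2.06-fold and 3.7-fold those of the FL. *Hspa5* and *Dnajc3* were thus past 2-fold in both fractions, and with the same FPKM total both stayed lower in the FL but past 2-fold only in GFP− cells.

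The other ER genes depended on the fraction. *Dnajb9* (ERdj4), a DnaJ protein that brings BiP to the sensor *Ern1*, stood at 42.8 (FL GFP+), 10.6 (FL GFP−), 29.8 (BM GFP+) and 34.7 (BM GFP−) FPKM, so that FL GFP− cells alone were low, 3.28-fold below BM GFP− cells. *Dnajb11* (ERdj3), which delivers nascent clients to BiP, was at 97.2, 65.5, 101 and 123 FPKM in the same order. *Dnajc10* (ERdj5), a disulfide reductase for proteins bound for degradation, was at 49.1, 20.5, 19.9 and 32.9 FPKM, highest in FL GFP+ cells and 2.47-fold above BM GFP+ cells. *Dnajc1*, at 7.95, 4.71, 11.7 and 6.22 FPKM, and *Hspa13*, at 7.94, 4.96, 10.3 and 8.91 FPKM, were low and stayed under 2-fold in all 4 comparisons.

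The promoters of the 3 ER genes *Hspa5*, *Hsp90b1* and *Dnajc3* are shown because each holds the ER stress element. The element is the letters CCAAT and CCACG with 9 bases of any kind between them on either strand. The transcription factor *Atf6* is known to act with it. Windows of 250 bases before to 50 after the start, from RefSeq on GRCm38.p6, were found for 51 of the 62 genes. Only these 3 of the 51 (5.88%) held it in a window, against 37 of all 27025 genes with a window (0.137%) and 14 of the 9931 of these that reached an FPKM of 1 (0.141%). A match of letters is a description and not proof of a site in use, and a link between element and tissue was not tested. The stretches below are the 150 bases before the start, 5′ to 3′ in the direction of the gene, with the element in capitals, for *Hspa5* (chr2:34771940-34772089, plus strand), *Hsp90b1* (chr10:86705445-86705594, minus strand) and *Dnajc3* (chr14:118937782-118937931, plus strand).
Hspa5: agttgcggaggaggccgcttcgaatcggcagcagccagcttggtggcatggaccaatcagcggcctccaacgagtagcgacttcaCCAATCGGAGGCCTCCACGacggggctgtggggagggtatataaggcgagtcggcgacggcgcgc
Hsp90b1: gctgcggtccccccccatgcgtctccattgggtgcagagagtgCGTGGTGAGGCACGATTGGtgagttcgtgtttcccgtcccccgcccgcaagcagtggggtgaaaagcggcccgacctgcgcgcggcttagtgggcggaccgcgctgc
Dnajc3: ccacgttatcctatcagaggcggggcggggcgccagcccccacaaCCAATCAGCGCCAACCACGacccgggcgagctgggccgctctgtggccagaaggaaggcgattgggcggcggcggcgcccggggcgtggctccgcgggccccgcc
The element ran from base -65 to -47 in *Hspa5*, from -107 to -89 in *Hsp90b1* and from -105 to -87 in *Dnajc3*, counted back from the start, and it lay on the opposite strand in *Hsp90b1*. The window of *Hsp90b1* held a second one on the gene's own strand, from -212 to -194, before the stretch shown. None of the windows of *Dnajb9*, *Dnajb11*, *Dnajc1* or *Dnajc10* held these letters, and *Hspa13* had no window.

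The wider ER folding and unfolded protein response list, 26 further genes, held more genes lower than higher in the FL, also under both rescalings. In GFP+ cells 14 of 26 were over 2-fold lower in the FL and 0 higher, against 32.1% and 24.1% of all genes, with a median log2 ratio of -1.42. In GFP− cells 15 were lower and 1 (*Ern1*) higher, against 20% and 19.2%, with a median of -1.19. With the same FPKM total 11 were lower and 3 higher in GFP+ cells and 8 lower and 1 higher in GFP− cells, with medians of -0.82 and -0.77. Of the 26, 10 were lower and 0 higher in both fractions as deposited, against 12.2% and 7.86% of all genes. With the same FPKM total 5 were lower in both and 1 was higher. Among the 10 as deposited were the transcription factors *Atf4*, at 67.1, 73.3, 226 and 214 FPKM, and *Xbp1*, at 65.3, 60.5, 190.1 and 136 FPKM. *Sdf2l1*, which forms a complex with *Dnajb11* in the ER, was at 26.4, 32.9, 184 and 198 FPKM and *Herpud1*, part of the degradation complex, at 48.8, 46.95, 151 and 109 FPKM. All 4 were higher in each BM sample than in each FL sample. The disulfide isomerase *Pdia4*, in contrast, was at 731, 64.4, 490.2 and 494 FPKM, low only in FL GFP− cells. Beside these values, the 4 genes of an early myeloid list, which code for granule proteases and myeloperoxidase, were all over 2-fold higher in the BM in both fractions, with sums of 13090 and 10875 FPKM in BM GFP+ and GFP− against 559.9 and 285.6 FPKM in FL GFP+ and GFP− cells. Their part in the ER difference, and that of the early response genes, was not tested.

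Among the cytosolic stress-inducible genes, *Hspa1a* alone was over 2-fold higher in the BM in both fractions. Of 11 genes on that list 9 reached an FPKM of 1, and in GFP+ cells 4 of them (*Hspa1a*, *Dnajb1*, *Dnajb4* and the small heat shock protein *Cryab*) were over 2-fold lower and 0 higher in the FL, while in GFP− cells 1 (*Hspa1a*) was lower and 2 (*Hspb8* and *Cryab*) were higher. Of all genes, 32.1% were lower and 24.1% higher in GFP+ cells, and 20% and 19.2% in GFP− cells. In both fractions 12.2% of all genes were lower in the FL. With the same FPKM total 2 of the 9 were higher and 4 lower in the FL in GFP+ cells, and with the same upper quartile 1 and 4. In GFP− cells 2 were higher and 1 lower under either rescaling. There the genes with a log2 ratio above 0 went from 4 of 9 as deposited to 7 with the same total. *Cryab*, which is outside the prefixes, was at 0, 3.78, 9.99 and 0.777 FPKM. *Hspa1a*, the classical heat-inducible HSP70, was listed at 0 in FL GFP+ cells and stood at 1.92 (FL GFP−), 10.4 (BM GFP+) and 5.69 (BM GFP−) FPKM. Its near-identical neighbour *Hspa1b* never exceeded 0.206 FPKM, and the split of reads between the pair is uncertain. *Dnajb1*, the main inducible DnaJ partner of HSP70, stood at 29.2 (FL GFP+), 38.96 (FL GFP−), 91.8 (BM GFP+) and 66.8 (BM GFP−) FPKM, 3.15-fold higher in the BM in GFP+ cells and 1.71-fold in GFP− cells. The BM values of both genes lay above the FL values in both fractions, beside the early response RNA that was higher in the same samples, and for *Dnajb1* in GFP− cells the difference came under 2-fold.

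The other inducible genes among the 62 differed in which sample was high. *Hsph1* (HSP110), which exchanges the nucleotide of HSP70, stood at 48.9 (FL GFP+), 22.2 (FL GFP−), 30.3 (BM GFP+) and 26.6 (BM GFP−) FPKM, highest in FL GFP+ cells. *Dnajb4* stood at 1.83, 17.9, 23.1 and 14.2 FPKM in the same order, low only in FL GFP+ cells. The small heat shock proteins *Hspb1*, at 0, 1.86, 0 and 2.38 FPKM, and *Hspb8*, at 0, 2.62, 0 and 0.914 FPKM, were listed at 0 in both GFP+ samples. Their highest values stayed under 3 FPKM, where 0 and a low value may not differ at the depth used, which the FPKM do not show. The regulators of this response were present in all samples. *Hsf1*, the master factor of the heat shock response, was at 20.1, 35.1, 28.1 and 34.05 FPKM, *Hsf2* at 1.3, 5.14, 1.16 and 4.04 FPKM, and *Hsbp1*, which binds and restrains *Hsf1*, at 74.7, 96.1, 171 and 118 FPKM.

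The heat shock element, the sequence that *Hsf1* binds, was searched in the same windows. Its long form, 3 units that alternate between GAA and TTC with 2 bases of any kind between units, occurred on either strand in the windows of *Hspe1*, *Hspd1*, *Hsph1* and *Dnajb6* (4 of 51, 7.84%) against 179 of all genes with a window (0.662%) and 55 of those that reached an FPKM of 1 (0.554%). The short form, GAA and then TTC with 2 bases between, occurred in 11 of 51 (21.6%), *Hspa1a* among them, against 9.04% of all genes with a window, and the other short form, TTC and then GAA, in 6 of 51 (11.8%), against 9.6%. The long form contains both short ones. The windows of *Hspe1* and *Hspd1*, which are read in opposite directions from a shared promoter, hold the same bases, so these 2 are 1 observation. The 150 bases before the start are shown for a constitutively high gene with the long form, *Hspe1* (chr1:55087998-55088147, plus strand), and an inducible gene with the short one, *Hspa1a* (chr17:34972157-34972306, minus strand), with the units in capitals.
Hspe1: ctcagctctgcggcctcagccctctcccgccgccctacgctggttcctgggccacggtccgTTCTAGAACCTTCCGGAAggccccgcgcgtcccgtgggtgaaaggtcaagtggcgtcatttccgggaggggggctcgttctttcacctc
Hspa1a: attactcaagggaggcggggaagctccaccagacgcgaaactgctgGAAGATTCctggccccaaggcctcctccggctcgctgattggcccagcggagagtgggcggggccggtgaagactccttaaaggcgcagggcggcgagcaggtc
*Hspe1* held the long form at -89 to -77 and again, overlapping, at -84 to -72, and *Hspa1a* the short form at -104 to -97. Of the 11 genes with the short form, *Hspa1a* and *Dnaja4* were over 2-fold higher in the BM in both fractions, as were 12.2% of all genes. *Dnaja4* did not exceed 2.2 FPKM, and a link between element and tissue was not tested.

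In the mitochondrion, the chaperonin genes stayed under 2-fold as deposited and the import gene *Dnajc15* did not. *Hspd1* (HSP60), which forms the folding chamber of the matrix, stood at 234 (FL GFP+), 228 (FL GFP−), 157 (BM GFP+) and 263 (BM GFP−) FPKM, and its lid *Hspe1* (HSP10) at 309, 178, 336 and 306 FPKM in the same order. *Hspa9* (mortalin), the HSP70 of the matrix and of protein import, was at 173, 193, 101 and 147 FPKM. All 3 of these matrix genes stayed under 2-fold in the 4 comparisons as deposited. *Hspa9* and *Hspd1* were past 2-fold higher in FL GFP+ than in BM GFP+ cells with the same FPKM total, and there *Hspd1* was past 2-fold lower in BM GFP+ than in BM GFP− cells. *Dnajc15*, a DnaJ protein of the inner membrane that resembles the import subunit *Dnajc19*, stood at 23.6 (FL GFP+), 52.7 (FL GFP−), 189.8 (BM GFP+) and 80.2 (BM GFP−) FPKM, a span of 8.05-fold between FL GFP+ and BM GFP+ cells. Both BM values lay above both FL values, by 8.05-fold in GFP+ and 1.52-fold in GFP− cells. *Dnajc19* itself was at 49.8, 45.1, 124 and 71.5 FPKM, 2.49-fold higher in the BM in GFP+ cells. *Dnaja3* (Tid1), the matrix partner of *Hspa9*, was at 46, 52.2, 72.99 and 54.3 FPKM. *Dnajc11*, linked to the cristae complex, was at 61.3, 59.9, 32.1 and 45.6 FPKM and *Dnajc30*, which associates with ATP synthase, at 30.9, 38.5, 32.2 and 49.5 FPKM, both under 2-fold throughout as deposited. At the same FPKM total, *Dnajc11* was past 2-fold higher in FL GFP+ than in BM GFP+ cells and *Dnajc30* lower in BM GFP+ than in BM GFP− cells.

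Counted over all 62 genes, 8 (12.9%) were over 2-fold higher in the FL in GFP+ cells, against 24.1% of all genes, and 17 (27.4%) were lower, against 32.1%. In GFP− cells 4 (6.45%) were higher in the FL, against 19.2% of all genes, and 10 (16.1%) were lower, against 20%. With the same FPKM total the counts became 21 higher and 12 lower in GFP+ and 9 higher and 9 lower in GFP− cells, so that the balance of the 62 between tissues turned with the scaling. *Hsp90ab1*, *Hspa4*, *Hspa4l*, *Hsph1*, *Hspbp1* and *Dnaja1* were among those past 2-fold higher in FL GFP+ cells with the same total and not as deposited. Under this scaling every FPKM ratio moved by the same factor, 0.63 in GFP+ and 0.43 in GFP− cells on the log2 scale. The median log2(FPKM + 1) ratio of all genes moved less, by 0.26 and 0.34, since the pseudocount damps low genes. The share of all genes past 2-fold was not taken under this scaling.

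Past 2-fold in the same direction in both fractions were 2 genes higher in the FL (3.23%, against 7.86% of all genes) and 8 lower (12.9%, against 12.2%), shares below and near those of all genes. The 2 higher were *Hspa12b*, an atypical HSP70 known from endothelium, at 16.6, 17.5, 6.09 and 3.99 FPKM, and *Dnajb5*, at 13.7, 7.14, 3.95 and 2.7 FPKM. The 8 lower were *Hspa5*, *Dnajc3* and *Hspa1a*, given above, *Dnajc17* at 8.01, 6.45, 22.7 and 18.6 FPKM, *Dnajc6* (auxilin, which recruits *Hspa8* to clathrin coats) at 0, 0.149, 2.77 and 3.43 FPKM, and the low *Dnajc25*, *Hspbap1* and *Dnaja4*, none of them above 5 FPKM. In GFP+ cells the lowest FL to BM log2(FPKM + 1) ratios belonged to *Dnajb3* (-4.40), *Hspa1a* (-3.52), *Dnajb4* (-3.09), *Dnajc15* (-2.96) and *Hspa2* (-2.55), and the highest to *Hspb11* (5.39) and *Dnajc16* (2.73). *Dnajc16* was at 17.5, 5.31, 1.79 and 3.46 FPKM, and *Hspa2*, the HSP70 known from testis, at 1.06, 7.89, 11.1 and 8.62 FPKM. In GFP− cells the lowest belonged to *Dnajc6* (-1.95) and *Dnajb2* (-1.89), a DnaJ protein that binds ubiquitin chains, which was at 7.46, 3.86, 7.52 and 16.98 FPKM.

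**Figure D3:**
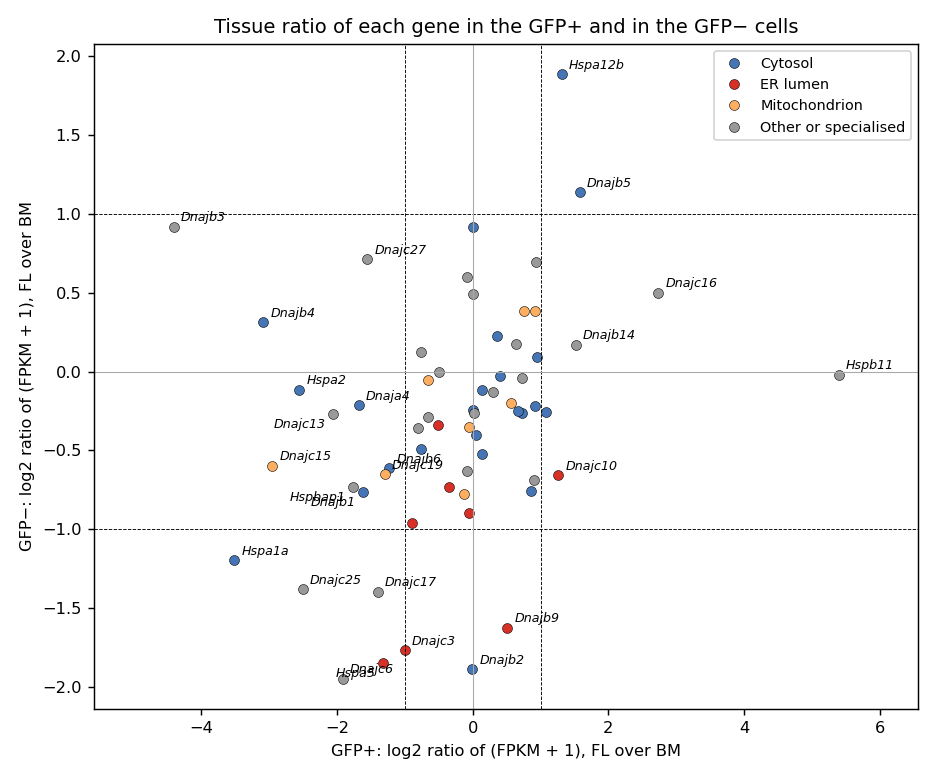
FL to BM log2 ratio of (FPKM + 1) for each of the 62 genes in GFP+ cells (x axis) and in GFP− cells (y axis), coloured by place of action, with dashed lines at 2-fold and 1 sample behind each group. As deposited, the 8 ER lumen genes all lie below 0 on the y axis, and with the same FPKM total 7 do; *Hspb11* lies far right because it is listed at 0 in BM GFP+ cells.

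Between the GFP fractions of the FL, all 8 ER lumen genes were higher in FL GFP+ than in FL GFP− cells, and 7 of 8 with the same FPKM total or the same upper quartile. Their median log2 ratio was 0.62 against 0 for all genes tested, and 0.41 and 0.43 under these scalings. Past 2-fold were 3 of the 8, all higher, namely *Dnajb9*, *Dnajc10* and *Dnajc3*, against 16.6% of all genes, and under either rescaling 2 were, *Dnajb9* and *Dnajc10*. *Dnajb9* was 4.04-fold, *Dnajc10* 2.4-fold and *Dnajc3* 2.24-fold higher, while *Hspa5* came to 1.27-fold and *Hsp90b1* to 1.15-fold. *Hspa8*, *Hsp90ab1*, *Hsp90aa1* and *Hspd1* came to 1.21, 0.957, 1.01 and 1.02 times the GFP− value. In the wider ER list 4 of 26 genes were over 2-fold higher in FL GFP+ cells and 6 lower, against 16.6% and 28% of all genes, with a median of 0.064. Of 28 co-chaperone genes outside the prefixes, 21 lay above 0, with a median of 0.36, and 16 with the same FPKM total, with a median of 0.11. Hepatocyte RNA was also higher in FL GFP+ cells, as given below, and its part was not tested.

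Over all 62 genes, 13 (21%) were over 2-fold higher in FL GFP+ cells, against 16.6% of all genes, and 14 (22.6%) were lower, against 28%. With the same FPKM total these were 9 and 15. *Dnajb12* and *Dnajb14*, DnaJ proteins anchored in the ER membrane that face the cytosol and act in degradation, were among the higher ones. *Dnajb12* was at 36.8 (FL GFP+), 8.06 (FL GFP−), 19.3 (BM GFP+) and 13.6 (BM GFP−) FPKM, 4.56-fold higher in FL GFP+ cells, and *Dnajb14* at 15.9, 4.19, 4.9 and 3.61 FPKM, 3.79-fold higher. In both genes FL GFP+ cells held the highest of the 4 values. *Hsph1* was 2.2-fold higher, and the small heat shock protein *Hspb6*, at 7.75, 2.55, 3.14 and 3.24 FPKM, 3.04-fold. *Dnajc14* (2.15-fold), *Dnajc16* (3.3-fold), *Dnajc18* (2.04-fold) and *Hspb11* (3.21-fold) followed, and *Dnajb13* and *Dnajc25* were counted because they were listed at 0 in FL GFP− cells.

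The 14 lower in FL GFP+ cells were led by *Dnajb3*, at 0.185 against 8.49 FPKM, *Dnajb4*, at 1.83 against 17.9 FPKM, and *Dnajc27*, at 0.66 (FL GFP+), 7.08 (FL GFP−), 3.87 (BM GFP+) and 3.93 (BM GFP−) FPKM. In each of these genes FL GFP+ cells held the lowest value. *Hspa2* was 7.44-fold lower, *Dnajc13*, which acts on endosomes, 4.3-fold, *Dnajc15* 2.24-fold and *Dnajc24* 2.03-fold. *Dnajc6* and *Hspa1a*, with *Hspb1*, *Hspb8* and *Dnajc28*, were listed at 0 in FL GFP+ cells. *Hspbap1* and *Dnajc21* completed the set, at 1.15 and 2.37 FPKM in GFP− cells. Beside these values, 6 hepatocyte genes summed to 449.6 FPKM in FL GFP+ against 67.9 FPKM in FL GFP− cells, and 18.5% against 7.09% of all genes were listed at 0, and the part of either in the difference was not tested.

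In the BM fewer chaperone genes were past 2-fold between GFP fractions. Of the 62, 6 (9.68%) were over 2-fold higher in BM GFP+ cells, against 19.7% of all genes, and 7 (11.3%) were lower, against 22.9%, and with the same FPKM total the counts were 4 and 13. The ER lumen genes had 0 past 2-fold in either direction, with 4 of 8 on each side and a median of -0.026. With the same FPKM total 7 of 8 lay below 0, 1 of them (*Dnajc10*) past 2-fold, with a median of -0.48. Several abundant cytosolic and mitochondrial chaperones lay below the GFP− value without passing the threshold as deposited, *Hspa8* at 0.763, *Hsp90ab1* at 0.714, *Hsp90aa1* at 0.737, *Hspa4* (another HSP110 protein) at 0.589, *Hspd1* at 0.597, *Hspa9* at 0.69 and *Hspbp1* (a nucleotide exchange factor) at 0.597 times. All of these stood lower under each scaling, with *Hspa4*, *Hspd1* and *Hspbp1* past 2-fold with the same FPKM total, beside the late neutrophil, erythroid and B cell RNA of the BM GFP+ library, whose part was not tested. The 13 CCT chaperonin and prefoldin genes, which fold actin and tubulin in the cytosol, had a median of -0.37 in the same comparison with 0 past 2-fold either way (4 lower with the same FPKM total), and 0.32 in the FL, where 1 was higher and 0 lower.

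The 6 higher in BM GFP+ cells were *Dnajc15* (2.37-fold), *Dnajb3* (6.002-fold), *Dnajc4* (2.13-fold, at 10.03, 9.12, 17.6 and 8.26 FPKM), *Dnajc25* (3.09-fold), *Dnaja4* and *Dnajb13*. *Dnaja4* stood at 2.2 against 0.159 FPKM. Lower were *Hspa4l*, also an HSP110 protein, at 7.01 (FL GFP+), 11.9 (FL GFP−), 3.81 (BM GFP+) and 14.4 (BM GFP−) FPKM, *Dnajb2* (2.26-fold), *Dnajc21*, which is needed for ribosome assembly, at 0.791, 2.37, 0.149 and 1.98 FPKM, and *Hspb1*, *Hspb8*, *Hspb11* and *Dnajc28*, which were listed at 0 in BM GFP+ cells. Apart from *Hspb11*, *Dnajb2* and *Hspa4l*, none of these 7 reached 4 FPKM in any sample.

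Few genes were past 2-fold with GFP in both tissues. Over 2-fold higher in both were 2 (3.23%, against 3.26% of all genes), *Dnajb13*, an axonemal protein of cilia and sperm, at 2.85, 0, 4.43 and 0 FPKM, and *Dnajc25*, at 0.0506, 0, 4.95 and 1.6 FPKM. Lower in both were 4 (6.45%, against 8.98%), namely *Hspb1*, *Hspb8*, *Dnajc21* and *Dnajc28*, the last at 0, 3.35, 0 and 2.1 FPKM. None of the 6 reached 5 FPKM in any sample. Opposite directions in the FL and the BM were shown by 3 genes (4.84%), against 11.9% of all genes. These were *Dnajc15*, *Dnajb3* at 0.185 (FL GFP+), 8.49 (FL GFP−), 24.1 (BM GFP+) and 4.01 (BM GFP−) FPKM, and *Hspb11* at 41.03 (FL GFP+), 12.8 (FL GFP−), 0 (BM GFP+) and 12.96 (BM GFP−) FPKM. *Dnajc15* was no longer past 2-fold in the BM with the same FPKM total. Among the genes that reached 5 FPKM, 0 were thus past 2-fold with GFP in the same direction in both tissues.

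**Figure D4:**
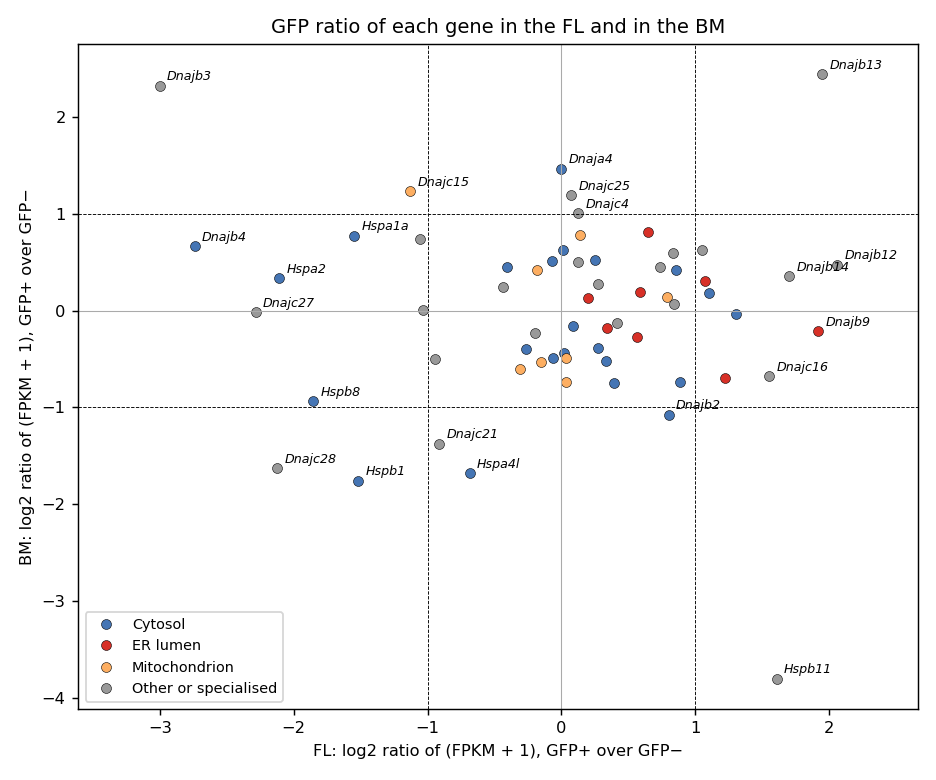
GFP+ to GFP− log2 ratio of (FPKM + 1) for each of the 62 genes in the FL (x axis) and in the BM (y axis), coloured by place of action, with dashed lines at 2-fold and 1 sample behind each group. As deposited, the 8 ER lumen genes lie to the right of 0, and under either rescaling 7 do, while they lie on both sides of 0 in the BM; *Dnajb3*, *Dnajc15* and *Hspb11* lie in opposite corners.

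A fit over all 4 samples with limma, in which the tissues stood in for replicates of the GFP effect and the fractions for those of the tissue effect, left 1 residual degree of freedom. For the GFP effect limma called 0 of the 62 genes at an adjusted p under 0.05, against 1.26% of all genes, and 0 under each alternative fit. An unadjusted limma p under 0.05 was found for 1 gene (*Dnajb13*, 1.61%), against 6.69% of all genes. For the tissue effect limma called 2, against 7.37% of all genes, and 9 (14.5%) had an unadjusted p under 0.05, against 17.1% of all genes. The 2 called were *Hspa5*, lower in the FL by a log2 ratio of -1.59 (SE 0.33, limma adjusted p = 0.000157), and *Dnajc15*, at -1.78 (SE 0.45, limma adjusted p = 0.00266), each with FL below BM in 2 of 2 fractions. Both calls lean on a prior of 205 degrees of freedom that limma drew from the other genes. Under the alternatives, *Hspa5* had a limma adjusted p between 0.000266 and 0.442, and *Dnajc15* was called only with the same upper quartile. *Hspb11*, higher in the FL, was called alone with the same FPKM total, and beside *Hspa5* and *Dnajc15* with the same upper quartile.

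The remaining DnaJ genes of specialised roles were present in all samples. *Dnajc8*, a splicing factor, stood at 164 (FL GFP+), 122 (FL GFP−), 173 (BM GFP+) and 189 (BM GFP−) FPKM, and *Dnajc9*, a histone chaperone, at 132, 121, 209 and 148 FPKM in the same order. *Dnajc2* and *Hspa14*, partners at the ribosome, were at 96.5, 57.5, 94.8 and 69.2 and 75.98, 91.7, 58.99 and 78.2 FPKM. All 4 stayed under 2-fold in every comparison. *Dnajb6*, which holds back aggregation, was at 90.97, 90.4, 214 and 139 FPKM, 2.35-fold higher in BM GFP+ than in FL GFP+ cells. *Dnajc7*, which links HSP70 and HSP90, was at 95.2, 79.8, 162 and 113 FPKM and the general HSP70 partners *Dnaja1* and *Dnaja2* at 61.9, 48.98, 31.7 and 45.9 and 103, 96.8, 93.7 and 105 FPKM. *Dnajc5* (cysteine string protein), which guards exocytosis, was at 53.5, 29.6, 27.6 and 17.9 FPKM, under 2-fold throughout as deposited and past it higher in the FL in both fractions with the same FPKM total. Values of *Dnaja1* equalled those listed for the microRNA gene *Mir207* inside it, so they are 1 measurement under 2 names.

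Of 28 co-chaperone genes outside the prefixes, between GFP fractions 2 were past 2-fold higher and 1 lower in the FL and 2 higher and 2 lower in the BM, and between tissues 5 were higher and 1 lower in FL GFP+ cells and 2 and 2 in GFP− cells. With the same FPKM total 16 were higher and 1 lower in FL GFP+ than in BM GFP+ cells, with a median log2 ratio of 1.06 against 0.44 as deposited, and 0 were higher and 5 lower in BM GFP+ than in BM GFP− cells, where 26 of 28 lay below 0. *Bag3*, which works with *Hspb8* in selective autophagy, was the only one past 2-fold in both fractions as deposited, lower in the FL, at 0, 3.39, 10.6 and 9.61 FPKM. Of all genes, 12.2% were lower in the FL in both fractions. Of 12 further mitochondrial chaperones and proteases, 0 were higher and 1 lower in GFP+ cells in either tissue, and 1 was higher and 2 lower in the FL in GFP+ cells, 0 and 1 in GFP− cells. Scaled to the same FPKM total these became 0 higher and 2 lower in GFP+ cells of either tissue. Between tissues they became 3 and 1 in GFP+ and 0 and 0 in GFP− cells. Among all genes as deposited, 16.6% were past 2-fold higher and 28% lower in FL GFP+ than in FL GFP− cells. The shares were 19.7% and 22.9% for BM GFP+ against BM GFP− cells. For the FL against the BM they were 24.1% and 32.1% in GFP+ and 19.2% and 20% in GFP− cells.

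Where genes overlap, a value can hold another gene's reads, since whether strand was used in the authors' counting is not given in the sources used here. On the mm9 annotation, 28 of the 62 genes overlap another gene and 22 a gene on the opposite strand. *Hspa8* (chr9:40609067-40613283) holds *Snord14c*, *Snord14d* and *Snord14e* within it, on its own strand. *Dnajb3* (chr1:90101307-90102323) lies within the *Ugt1a* cluster on the opposite strand. *Hspa5* (chr2:34627490-34632051), *Hsp90b1* (chr10:86152954-86168254), *Dnajc15* (chr14:78226024-78274724) and *Hspb11* (chr4:106926198-106952543) are the other positions of genes on which the results turn, as whole genes from first to last exon. *Hspa5*, *Dnajc3* (chr14:119337154-119380924) and *Dnajc15* overlap no other gene, and *Hsp90b1* overlaps genes on both strands.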

How the data were processed

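Members and lists were chosen with earlier results of these data known, and the place of action of each gene was assigned from known protein location after the values had been seen. FPKM were deposited, made by the authors from SMARTer cDNA libraries with TopHat and Cufflinks 2.2.1 and normalized across the 4 samples with Cuffnorm by its geometric method. The study's methods name the mm9 genome and the submitters' processing notes mm10, so gene positions are on mm9 (GENCODE vM1) and promoters on GRCm38.p6 (RefSeq). The paper gives the uniquely mapped reads of each library, but the files hold no read counts per gene. The reads behind a single FPKM and its counting error are thus not given. No count model was used. SMARTer amplification and short transcripts can add error to low FPKM.

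Ratios of FPKM above 2 were called on the values as deposited, and log2 ratios used FPKM plus a pseudocount of 1, which understates the change of low genes. Genes under an FPKM of 1 in all samples were left out. No fold is given against a value of 0. limma 3.58.1 in R 4.3.3 (lmFit on log2(FPKM + 1), eBayes with trend, the other factor as a block, Benjamini-Hochberg adjustment over 13609 genes) gave the only p-values. On simulated data of 13609 genes with 100 changed by 4-fold and 100 by 8-fold, both the fold rule and limma recovered 100%, limma with 7 false calls. The simulated samples had little noise, no tissue effect and the same change in both tissues, set only in genes well above the FPKM minimum. The simulation thus checks that the steps run, and it cannot show how either rule performs on these unreplicated samples. The rest was done in Python 3.11.15 (numpy 2.4.6, pandas 2.3.3, matplotlib 3.10.9).

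The genes named are a list of core chaperones, the 10 with the highest FPKM, the 5 highest and 5 lowest ratios of each of 4 comparisons, and those of at least 5 FPKM past 2-fold in both tissues or both fractions. Values of further genes are given to account for every gene counted. Alternatives were a pseudocount of 0.1, thresholds of 1.5-fold and 4-fold, a minimum of 5 FPKM, log2 ratios in place of FPKM ratios, the same FPKM total or upper quartile in all samples, and limma without trend, without block or with a filter on 2 samples.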

Additional observations from a re-analysis of the deposited data

Results flagged for a closer look

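Effects of the same contrast went in opposite directions past 2-fold in 3 genes. The GFP+ to GFP− log2(FPKM + 1) ratio of *Dnajb3* was -3.00 for FL and 2.32 for BM cells, a difference of -5.32, and its tissue ratio differed between the GFP+ and GFP− cells by the same -5.32. For *Dnajc15* the ratios were -1.13 for FL and 1.23 for BM cells, a difference of -2.36. For *Hspb11* they were 1.61 and -3.80, a difference of 5.41, with BM GFP+ listed at 0. With 1 sample per group none of these differences was tested. For the GFP contrast 11.9% of all genes were past 2-fold in opposite directions in the FL and the BM. For the tissue contrast in the GFP+ and GFP− cells it was 6.86% of all genes, against 1 of the 62 (1.61%).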

How the results depend on the processing

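No paired analysis was possible because the labels carry no replicate numbers by which samples could be paired (the block in limma was the other factor, tissue or fraction), and no replicate could be left out, since each group is 1 sample. The median ratio of the 62 genes changed its sign with the same FPKM total in all 4 comparisons. The number of genes past 2-fold between GFP fractions became 15 in the FL with a 4-fold threshold, and in the BM 28 with 1.5-fold, 8 with 4-fold and 6 with a minimum of 5 FPKM. Between tissues it became 42 with 1.5-fold and 14 with 4-fold in GFP+ cells, and 31 with 1.5-fold, 5 with 4-fold and 9 with a minimum of 5 FPKM in GFP− cells. Genes past the threshold with GFP in both tissues became 10 with 1.5-fold, 3 with log2 ratios and 0 with a minimum of 5 FPKM, and those with tissue in both fractions 17 with 1.5-fold, 3 with 4-fold and 6 with a minimum of 5 FPKM. The median log2 ratio of the 62 genes moved to -0.083 (same total) and -0.052 (same upper quartile) between GFP fractions in the FL, to -0.31 (same total) in the BM, to 0.52 (same total) between tissues in GFP+ cells, and to 0.067 (same total) and -0.13 (same upper quartile) in GFP− cells. limma called 0 genes for tissue without the trend and without the block, and 1 with a pseudocount of 0.1 (*Hspa5*), with the filter on 2 samples (*Hspa5*) and with the same total (*Hspb11*), against 2 in the fit as reported. The same-total scaling moved the median of all genes by -0.14, -0.31, 0.26 and 0.34 in the 4 comparisons, and the splits it gave were 9 higher and 15 lower for FL, 4 and 13 for BM cells, 21 and 12 between tissues in GFP+ and 9 and 9 in GFP− cells, and 4 and 4 for tissue in both fractions. Of the 160 ratios of the 40 named genes, 145 moved by over 0.1 on the log2 scale under the same total, 85 under the same upper quartile and 58 with a pseudocount of 0.1. Either rescaling multiplies all FPKM of a sample by 1 factor. For the same total it shifts every FPKM ratio by -0.26, -0.46, 0.63 and 0.43 on the log2 scale in the 4 comparisons. The pseudocount acts mainly on genes of low FPKM. Which scaling suits these samples was not tested. Depth limits the genes of low FPKM, for which the files hold no counts.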

Other observations

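The 12 genes with the prefixes that stayed under 1 FPKM in every sample were *Hspa1b* and the testis gene *Hspa1l*, with *Hspa12a*, the small heat shock genes *Hspb2*, *Hspb3*, *Hspb7* and *Hspb9* and the DnaJ genes *Dnajb7*, *Dnajb8*, *Dnajc22*, *Dnajc5b* and *Dnajc5g*. Within the mitochondrial chaperonin pair, *Hspe1* over *Hspd1* FPKM was 1.32 (FL GFP+), 0.779 (FL GFP−), 2.14 (BM GFP+) and 1.16 (BM GFP−), higher in the GFP+ sample of each tissue. *Hsp90aa1* over *Hsp90ab1* was 0.370 and 0.350 in FL against 0.469 and 0.453 in BM cells, GFP+ first, so that both BM samples lay above both FL samples. These ratios within a sample do not depend on its scaling, and they have no replicate.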
